A study of Mus musculus with 8 samples.

Results

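AP-1 and immediate early genes were followed in peritoneal macrophages of mice lacking Card9 (Card9-/-) and of wild-type mice (wt), all given zymosan. The 10 genes were the Fos family (Fos, Fosb, Fosl1 and Fosl2), the Jun family (Jun, Junb and Jund), and Atf3, Egr1 and Ier3. They were taken by name from the array design, where 15 of 56605 probes carry one of these names. All 10 were among the 18605 genes that passed the filter on dim probes, and all 10 were well above background on each of the 8 arrays at the probe used, so none depended on that filter. The samples were 4 arrays of Card9-/- and 4 of wt RNA, one colour each. Per the labels, both groups had received 1 ml of 3% thioglycolate, a broth that draws macrophages into the peritoneum, and zymosan, a yeast cell wall preparation, at 500 mg/kg for 4 h. The peritoneal fluid was collected 4 days after the broth and adherent cells were kept. Pellets of 4 or 5 mice per group were collected, but it is not stated if 1 array means 1 mouse or pooled mice, so p-values measure only the spread between these samples. Untreated mice were not analysed here, and no value below measures a response to zymosan itself. The age, sex and strain of the mice and the deleted part of Card9 are not given in the labels.

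AP-1 is a transcription factor made of pairs of basic leucine zipper proteins, in which a Jun protein binds DNA together with a Fos protein, another Jun protein or a relative such as Atf3. Most of these genes are immediate early genes: stimulation of a resting cell switches them on within minutes through MAP kinases and factors already present, and their RNAs are short-lived. In macrophages, zymosan engages Dectin-1 and Toll-like receptors, and Card9 passes the Dectin-1 signal through Bcl10 and Malt1 to NF-kB and has also been linked to MAP kinase signalling in mice. Jund differs from Fos, Junb and Egr1 in being present in most resting cells.

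The promoters shown are those that hold a kappa B box, the binding motif of NF-kB, the factor at the end of the Card9 signal. RefSeq sequences (GRCm38.p6) of 8 of the 10 genes were used. None was found for Fosl1, and Egr1 was left out of the search, so nothing here describes its promoter. The 250 bases before the start of transcription were searched on both strands. A kappa B box was found in 4 of the 8 windows, against 3.9% of 32851 windows of the same length. It lay 214 to 205 bases before the start of Fos, 188 to 179 before Fosb, 182 to 172 before Fosl2 as 2 overlapping matches, and 92 to 83 before Ier3. The AP-1 site TGACTCA (4.46% of all windows), the cyclic AMP response element TGACGTCA (1.55%), the Egr site GCGTGGGCG (0.536%) and the CArG box of serum response factor (1.47%) were found in 0 of the 8. A match is a description of the letters only. The windows are at chr12:85473640-85473889 (plus strand), chr7:19310046-19310295 (minus), chr5:32136222-32136471 (plus) and chr17:35821463-35821712 (plus). They are printed in the direction of the gene, with the kappa B box in capitals.
Fos: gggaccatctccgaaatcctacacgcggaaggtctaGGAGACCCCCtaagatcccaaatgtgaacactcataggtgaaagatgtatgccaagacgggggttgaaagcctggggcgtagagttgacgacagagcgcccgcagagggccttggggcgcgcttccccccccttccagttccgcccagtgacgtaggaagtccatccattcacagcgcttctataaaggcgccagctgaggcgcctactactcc
Fosb: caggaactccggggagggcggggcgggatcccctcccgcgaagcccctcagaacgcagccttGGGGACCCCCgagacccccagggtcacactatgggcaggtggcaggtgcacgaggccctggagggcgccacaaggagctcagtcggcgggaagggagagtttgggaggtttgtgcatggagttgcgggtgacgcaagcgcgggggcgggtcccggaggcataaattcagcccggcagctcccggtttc
Fosl2: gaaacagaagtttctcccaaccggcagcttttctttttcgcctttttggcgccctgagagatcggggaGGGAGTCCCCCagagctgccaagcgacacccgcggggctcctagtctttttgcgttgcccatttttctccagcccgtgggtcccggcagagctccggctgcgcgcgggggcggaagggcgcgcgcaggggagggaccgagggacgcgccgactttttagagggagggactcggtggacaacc
Ier3: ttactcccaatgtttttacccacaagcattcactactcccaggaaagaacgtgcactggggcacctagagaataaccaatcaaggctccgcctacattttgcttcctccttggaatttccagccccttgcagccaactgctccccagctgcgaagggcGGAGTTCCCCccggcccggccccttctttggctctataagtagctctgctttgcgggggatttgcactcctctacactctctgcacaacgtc

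On each array between 28326 and 33503 of 59305 non-control spots (47.8% to 56.5%) were well above background and 0 were saturated, and the number of arrays limits the precision. A level is the log2 signal minus that of the 75th percentile of its array, and a gene at 0 is as bright as this percentile. Levels compare arrays at one probe and never one gene with another. Card9 itself (chromosome 2, 26208066 to 26208504, mm9) was well above background on 0 Card9-/- and 3 wt arrays, at least 2.78-fold lower in Card9-/- (limma, adjusted p = 0.688). At this probe the library labelled wt replicate 1 was the wt array without it, and the wt levels were -6.21, -3.66, 1.48 and -0.67. The other Card9 probe was well above background on 0 Card9-/- and 2 wt arrays, replicates 2 and 3. Wt replicates 1 and 2 lay closer together (correlation 0.985 over all genes) than any other pair. Both were nearer to Card9-/- replicate 2 (0.949 and 0.963) than to wt replicate 3 (0.822 and 0.84) or 4 (0.86 and 0.895). The arrays thus did not group by genotype, and wt replicates 3 and 4 stood apart in macrophage markers. Of 18 such markers, the mean level was 2.17 to 2.40 on Card9-/- arrays and 0.71, 0.95, 5.77 and 4.62 on wt replicates 1 to 4. The 4 wt arrays and Card9-/- replicate 4 shared a slide and a scan, while the other Card9-/- arrays were on another 2 slides. All 5 genes that passed the threshold in the whole comparison lie on the X or Y chromosome, so that the sex of the mice and the genotype cannot be told apart.

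None of the 10 genes differed between genotypes beyond the spread of the arrays. At an adjusted p of 0.05 (limma, over all genes tested) 0 of the 10 passed, against a background of 0.0269% of all genes. At an unadjusted p under 0.05 there were 0 higher and 0 lower, where 2.64% of all genes were higher and 4.59% lower. For 0 of the 10 did every Card9-/- array lie above every wt array (1.53% of all genes), and for 0 of the 10 below (3.69%). The log2 difference, Card9-/- minus wt, was positive for 4 genes and negative for 6, with a median of -0.13 against -0.09 for all genes. These are whole-culture measurements, in which fewer cells of a type and less RNA per cell cannot be told apart.

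**Figure D1:**
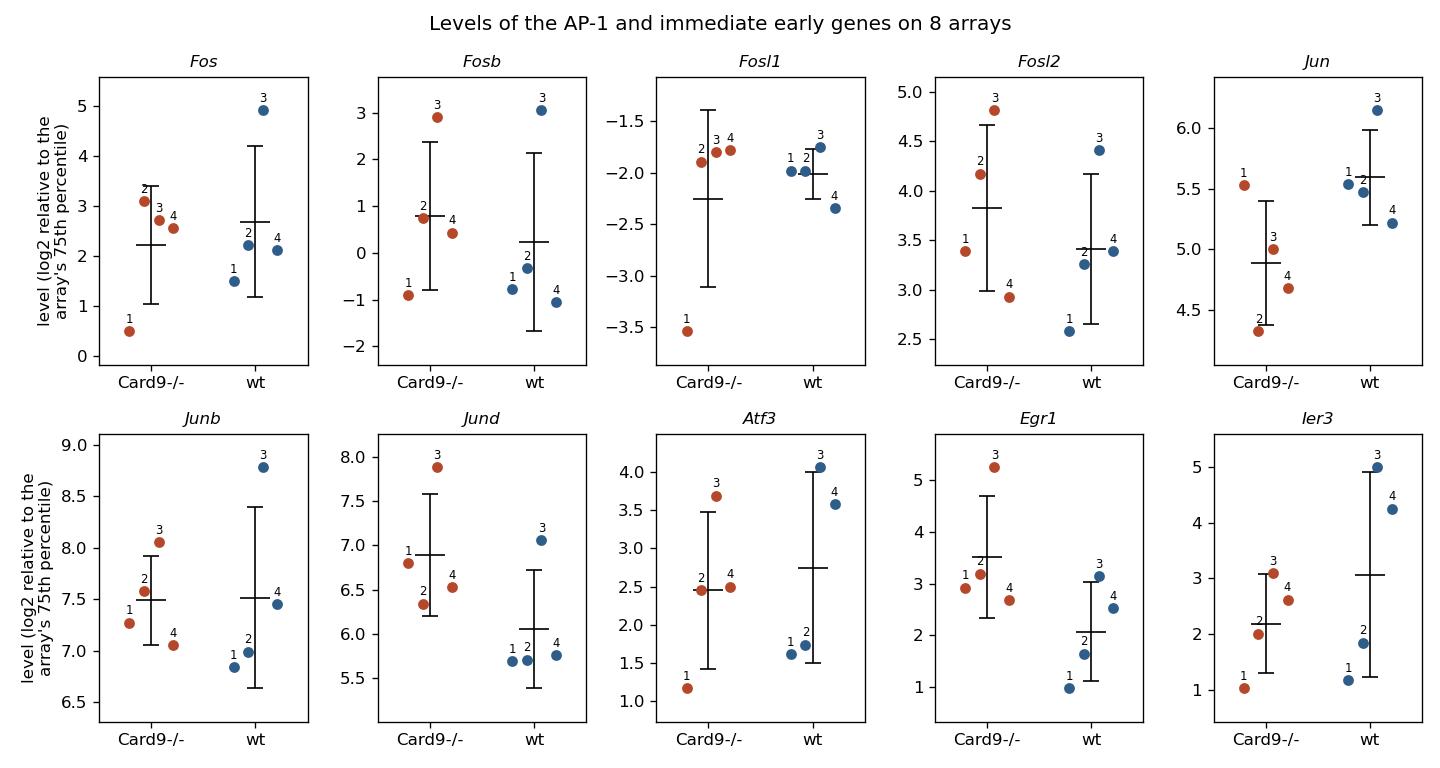
Levels of the 10 genes (log2 relative to the array's 75th percentile) on the 4 Card9-/- and the 4 wt arrays; points are arrays with their replicate number, and lines are the mean and SD. The groups overlap in every panel, and wt replicate 3 is the highest wt array throughout.

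Fos, the founding member of the family and a partner of Jun proteins, had the widest range over the arrays of the 10 genes (4.41), although Fosb had the larger SD (1.65 against 1.28). Its level was 0.50, 3.11, 2.73 and 2.56 in Card9-/- replicates 1 to 4 and 1.51, 2.22, 4.92 and 2.13 in wt replicates 1 to 4 (probe on chromosome 12, 86818118 to 86818177, mm9). Card9-/- replicate 1 was the lowest array and wt replicate 3 the highest. The means were 2.22 ± 1.17 in Card9-/- and 2.70 ± 1.51 in wt (SD, n = 4 each), a difference of -0.47 (SE 0.82, adjusted p = 0.938; exact two-sided permutation p = 0.629). The difference was 0.27 without wt replicate 3 and 0.10 without Card9-/- replicate 1, so its sign rests on single arrays. Fosb, whose protein takes the same place as Fos in the pair, was at -0.90, 0.74, 2.90 and 0.43 in Card9-/- and -0.77, -0.32, 3.05 and -1.05 in wt (chromosome 7, 19888168 to 19888227). Replicate 3 was far above the rest in both genotypes. The difference was 0.57 (SE 1.03, adjusted p = 0.942; exact permutation p = 0.60), and -0.13 without Card9-/- replicate 3. The other Fosb probe was well above background on 0 Card9-/- and 1 wt array, wt replicate 3.

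Fosl1 and Fosl2 encode Fra-1 and Fra-2, members of the Fos family that lack the strong activation domain of Fos and tend to appear later after stimulation. Fosl1 was at -3.54, -1.89, -1.80 and -1.78 in Card9-/- and -1.98, -1.98, -1.75 and -2.34 in wt (chromosome 19, 5455496 to 5455555). All arrays but Card9-/- replicate 1 lay within 1 narrow band. On that array Fosl1 was near the lowest level well above background (-3.64). The Fosl1 difference of -0.24 (SE 0.46, adjusted p = 0.949, exact permutation p = 0.914) was 0.19 without that array. Fosl2 was at 3.39, 4.17, 4.81 and 2.93 in Card9-/- and 2.58, 3.26, 4.41 and 3.39 in wt (chromosome 5, 32460076 to 32460135), again with replicate 3 highest in both. The difference was 0.42 (SE 0.53, adjusted p = 0.906; exact permutation p = 0.457). A block for the slide, or slide 1 alone, gave -0.48, both resting on Card9-/- replicate 4. A nearer 5′ probe of Fosl2, at base 738 of the transcript, differed by 0.00 (SE 0.64), and the 2 probes correlated at 0.44 over the 8 arrays.

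Jun, the main DNA-binding partner of Fos, followed the other genes least from array to array, and 3 of its Card9-/- arrays lay under the wt arrays. It stood at 5.53, 4.32, 5.00 and 4.68 in Card9-/- replicates 1 to 4 and at 5.54, 5.47, 6.15 and 5.22 in wt replicates 1 to 4 (chromosome 4, 94716928 to 94716987). Card9-/- replicates 2, 3 and 4 were below all 4 wt arrays, and Card9-/- replicate 1 lay among them. The means were 4.88 ± 0.51 and 5.60 ± 0.39 (SD, n = 4 each), a difference of -0.71 (SE 0.39, unadjusted p = 0.0982, adjusted p = 0.76; exact permutation p = 0.0857). The difference was negative under all 21 alternatives, from -0.93 to -0.19, and passed under 0 of them.

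Junb, an immediate early Jun protein that can restrain Jun, averaged 7.49 ± 0.43 in Card9-/- and 7.52 ± 0.88 in wt (SD, n = 4 each). Its level was 7.27, 7.58, 8.05 and 7.05 in Card9-/- and 6.84, 6.99, 8.78 and 7.45 in wt (chromosome 8, 87500843 to 87500902), with a difference of -0.03 (SE 0.49, adjusted p = 0.997; exact permutation p = 1). The sign turned with single arrays, to 0.39 without wt replicate 3, 0.04 without Card9-/- replicate 1 and 0.12 without Card9-/- replicate 4, and with quantile normalization (0.45). A second probe, at base 707 of the transcript, differed by 0.21 (SE 0.54), and another, under a cDNA accession, was well above background on no array.

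Jund, the Jun protein of resting cells, had its 4 Card9-/- arrays above 3 of the 4 wt arrays. The values were 6.80, 6.34, 7.88 and 6.53 in Card9-/- and 5.69, 5.71, 7.06 and 5.76 in wt (chromosome 8, 73224436 to 73224495). Wt replicate 3 alone among the wt arrays reached the Card9-/- range. The means were 6.89 ± 0.69 and 6.05 ± 0.67 (SD, n = 4 each), a difference of 0.83 (SE 0.48, unadjusted p = 0.116, adjusted p = 0.776; exact permutation p = 0.114), positive under all 21 alternatives (0.48 to 1.35). The probes of Jund disagree in part. A second probe, at base 2663 of the transcript against base 2797 for the first, gave 6.02, 6.34, 6.65 and 6.09 in Card9-/- and 5.48, 5.61, 7.08 and 5.79 in wt, and a difference of 0.28 (SE 0.43). The first probe exceeded the second by 0.78 and 1.23 on Card9-/- replicates 1 and 3, which share slide 2, by 0.44 on replicate 4 and by 0.00 on replicate 2, against -0.03 to 0.21 on wt arrays.

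Egr1, a zinc finger factor that serum response factor and its MAP kinase-driven partners switch on, had the largest difference of the 10. Its level was 2.92, 3.19, 5.24 and 2.68 in Card9-/- and 0.98, 1.65, 3.14 and 2.52 in wt (chromosome 18, 35024395 to 35024454). The only overlap was wt replicate 3, which lay above Card9-/- replicates 1 and 4. The means were 3.51 ± 1.18 in Card9-/- and 2.07 ± 0.95 in wt (SD, n = 4 each), a difference of 1.43 or 2.69-fold (SE 0.67, unadjusted p = 0.0598, adjusted p = 0.701; exact permutation p = 0.114). It was positive under all 21 alternatives, from 0.61 with the slide as a block to 2.19 without both wt replicates 3 and 4. The slide block rests on Card9-/- replicate 4 alone in that genotype. Without both wt replicates 1 and 2 the difference was 0.68 (SE 0.75). Weighting the arrays took it past the threshold (2.18, adjusted p = 0.0491), in a fit that called 540 genes and gave weights of 3.05 and 7.65 to wt replicates 1 and 2 and 0.19 to wt replicate 3. Markers of natural killer and T cells lay higher in Card9-/- beside these differences, though 0 of them passed the threshold (limma). Of 14 natural killer genes 13 were higher in Card9-/- (11 at an unadjusted p under 0.05), with a summed level of 52.3 to 253 on Card9-/- arrays and 20.7 to 39.1 on wt arrays. Among Card9-/- arrays this sum was lowest on replicate 3, where Egr1 was highest, and highest on replicate 1. Of 18 T cell genes 17 were higher, 14 of them at an unadjusted p under 0.05 (211 to 390, against 165 to 277), and each of these markers was well above background on some array. B cell markers (13 of 14 higher, 2 at an unadjusted p under 0.05) and red cell and platelet markers (7 of 9 higher, 1 so) leaned the same way. Of 18 macrophage markers 13 were lower in Card9-/-. In these lists too 0 genes passed the threshold (limma). The part of all these cells in the values of Egr1, Jund and Jun was not tested.

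Atf3, a stress-induced relative of the Fos and Jun proteins that often represses inflammatory genes, and Ier3, an early gene under NF-kB that influences cell survival, shared a pattern of their own. Atf3 was at 1.17, 2.45, 3.69 and 2.50 in Card9-/- and at 1.62, 1.74, 4.06 and 3.58 in wt (chromosome 1, 192994547 to 192994606). Ier3 was at 1.03, 2.01, 3.10 and 2.62 in Card9-/- and at 1.18, 1.85, 4.99 and 4.25 in wt (chromosome 17, 35959528 to 35959587). In both genes wt replicates 3 and 4 were high and wt replicates 1 and 2 low, the division seen in the macrophage markers. Card9-/- replicate 3 lay within the high wt pair for Atf3, and the other Card9-/- values lay between the 2 wt pairs or below them. The correlation of the 2 genes over the 8 arrays was 0.94, the highest of the 45 pairs. The differences were -0.30 for Atf3 (SE 0.71, adjusted p = 0.96; exact permutation p = 0.743) and -0.88 for Ier3 (SE 0.87, adjusted p = 0.88; exact permutation p = 0.429). Without both wt replicates 3 and 4 they were 0.77 and 0.68, and without both wt replicates 1 and 2 -1.37 and -2.43. Atf3 also turned to 0.13 without wt replicate 3 alone, and to 0.13 without Card9-/- replicate 1.

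**Figure D2:**
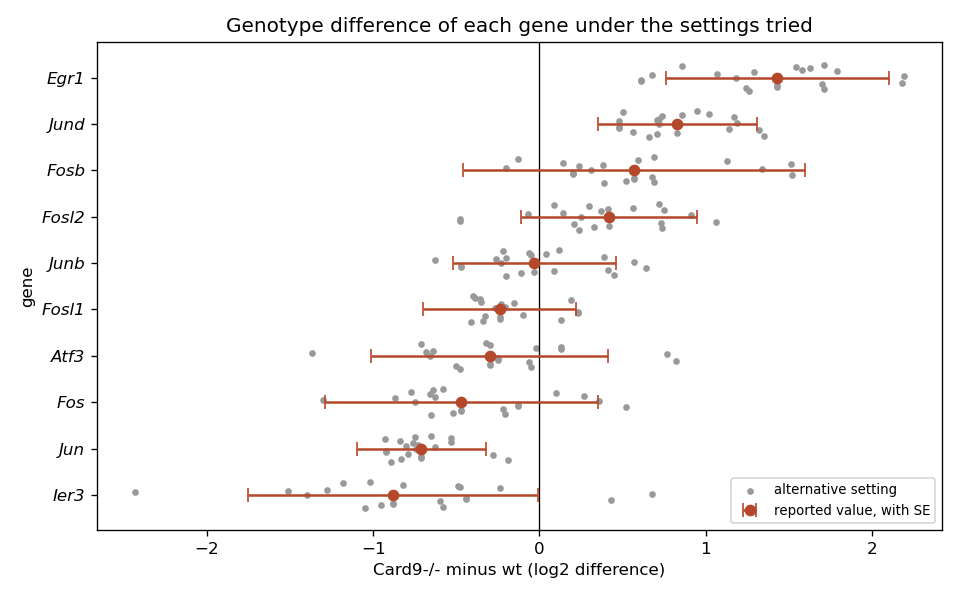
Log2 difference of each gene, Card9-/- minus wt (horizontal axis), as reported with its SE (red) and under the 21 alternative settings (grey points). Jun stays below 0, Jund and Egr1 stay above 0, and the other 7 genes cross it.

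Most of the genes moved together over the 8 arrays, and replicate 3 was the highest array for most of them in each genotype. Wt replicate 3 was the highest wt array for all 10 genes, which holds for 40.8% of all genes. Card9-/- replicate 3 was the highest Card9-/- array for 7 of the 10, against 22.4% of all genes. Both held at once for 7 of the 10, against 8.30% of all genes. At the other end, wt replicate 1 was the lowest wt array for 7 of the 10 (28.7% of all genes) and Card9-/- replicate 1 the lowest Card9-/- array for 5 (24.7%). Averaged over the 10 genes, each centred on its own mean, the deviation was -0.75, 0.03, 0.99 and -0.15 in Card9-/- replicates 1 to 4 and -0.85, -0.51, 1.31 and -0.08 in wt replicates 1 to 4. Fibroblast and mesothelial markers followed a like order in part, macrophage markers did so in wt, and several other cell lists did not. Averaged over 6 fibroblast genes, centred in the same way, the deviation was -0.92, 1.24, 0.72 and -0.58 in Card9-/- and -2.04, -1.0, 1.73 and 0.84 in wt, with summed levels of 5.77 to 25.2 on Card9-/- and 2.65 to 31.9 on wt arrays. Over 6 mesothelial genes it was -0.95, 0.53, 0.21 and 0.45 in Card9-/- and -1.20, -0.73, 1.54 and 0.14 in wt, with summed levels of 1.45 to 3.60 on Card9-/- and 1.13 to 6.72 on wt arrays. Both lists were thus lowest on replicate 1 of each genotype and, in wt, highest on replicate 3, as the 10 genes were. In Card9-/- both lists were highest on replicate 2, where the 10 genes were highest on replicate 3. Over 18 macrophage genes the deviation was -0.41, -0.48, -0.35 and -0.25 in Card9-/- and -1.93, -1.7, 3.13 and 1.98 in wt. For this list the wt arrays kept the order of the 10 genes, while the Card9-/- arrays lay close together. Pdgfra, Pdgfrb and Dpt of the fibroblast list were well above background on 0 arrays. Of the genes averaged, Msln, Krt19, Wt1 and Gpm6a (mesothelial) and Fbln1 (fibroblast) were not well above background on all 8 arrays. Nor were Fcgr1, Timd4 and Cd163 (macrophage). The mesothelial order thus rests in part on values near background. The part of these cells in the result was not tested. The replicate numbers do not tie a Card9-/- array to a wt array, and Card9-/- replicate 3 and wt replicate 3 were on different slides.

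**Figure D3:**
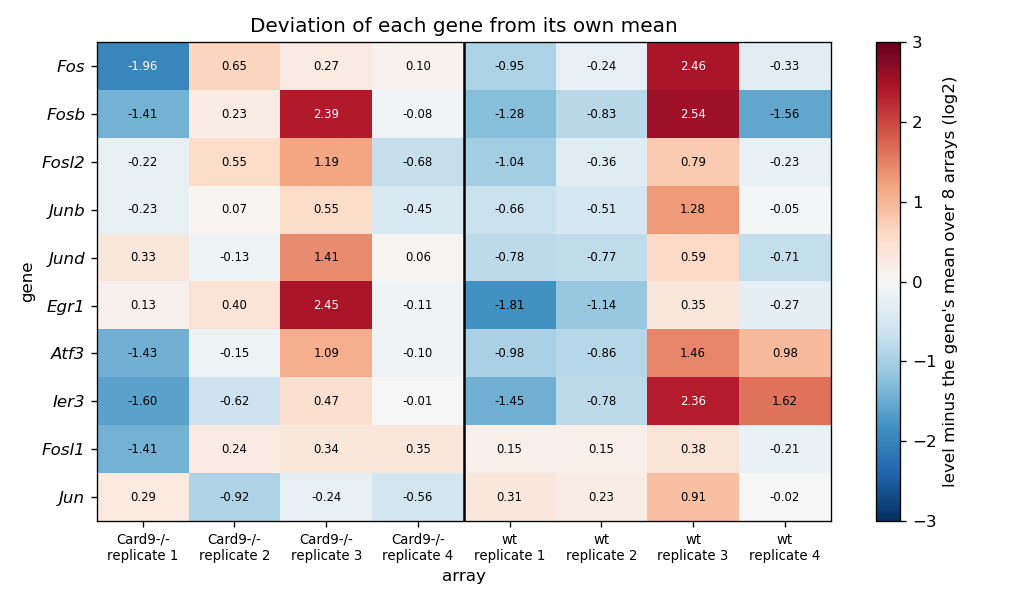
Level of each gene minus its mean over the 8 arrays (log2, red above and blue below), with Card9-/- arrays left of the line and wt arrays right of it. Replicate 3 is red in 9 of 10 rows in Card9-/- and in all 10 rows in wt, and Fosl1 and Jun vary least.

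The correlation between 2 of the genes over the 8 arrays was positive for 41 of 45 pairs, with a median of 0.56 and a range of -0.27 to 0.94. Genes on one array share its library, cell mixture and scaling, and this is a description of 8 points. Fosb (0.90) and Junb (0.92) followed the mean of the other 9 genes closely, Jun did not (0.06). Jund and Egr1 (0.91), Fosl2 and Egr1 (0.86), and Fosb and Junb (0.85) were further close pairs. Of 14396 other genes well above background on all arrays, those most like the mean of the 10 were Sergef (Pearson r 0.982), Hip1 (0.968), Coq10b (0.957) and Sh3kbp1 (0.955), and 7.21% of the genes compared had an r over 0.7.

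Taking the difference between 2 genes within an array removes any scaling between arrays, and this comparison was added after the levels had been seen. Of 45 pairs, 5 did not overlap between the genotypes, and Egr1 was in 4 of them. Egr1 minus Ier3 was 1.89, 1.18, 2.14 and 0.06 in Card9-/- replicates 1 to 4 and -0.19, -0.20, -1.86 and -1.73 in wt replicates 1 to 4. Jun minus Egr1 was 2.61, 1.13, -0.25 and 1.99 in Card9-/- and 4.56, 3.82, 3.01 and 2.70 in wt. Egr1 was thus higher against these 2 genes on every Card9-/- array than on any wt array. Atf3 minus Egr1 averaged -1.06 ± 0.73 in Card9-/- and 0.68 ± 0.43 in wt, and Junb minus Egr1 3.98 ± 0.78 and 5.44 ± 0.40 (SD, n = 4 each). The fifth pair was Jun minus Jund, at -1.26, -2.03, -2.89 and -1.85 in Card9-/- and -0.15, -0.23, -0.91 and -0.54 in wt, for the brighter Jund probe. The separation ended with the other Jund probe (-0.48, -2.02, -1.65 and -1.42 in Card9-/- and 0.06, -0.14, -0.94 and -0.57 in wt, exact permutation p = 0.0857). That of Junb minus Egr1 ended with the other Junb probe (-3.04, -1.56, -3.01 and -2.33 in Card9-/- and 0.14, -0.96, -2.13 and -2.11 in wt, exact permutation p = 0.114). Both probes were tried after the data had been seen. The exact permutation p of each of the 5 was 0.0286, which is the lowest value available with 70 permutations. Every pair without overlap has this p, so it adds nothing to the separation by which the 5 were picked. Adjusted over the 45 pairs it was 0.257. Such separation is common for Egr1: against all other genes tested it occurs for 20.4%, nearly always with Egr1 above. The share is 11.1% for Jund, 8.98% for Jun, 2.22% for Junb, 0.662% for Ier3 and 0.592% for Atf3. An unequal change between 2 genes does not show which of them differs.

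**Figure D4:**
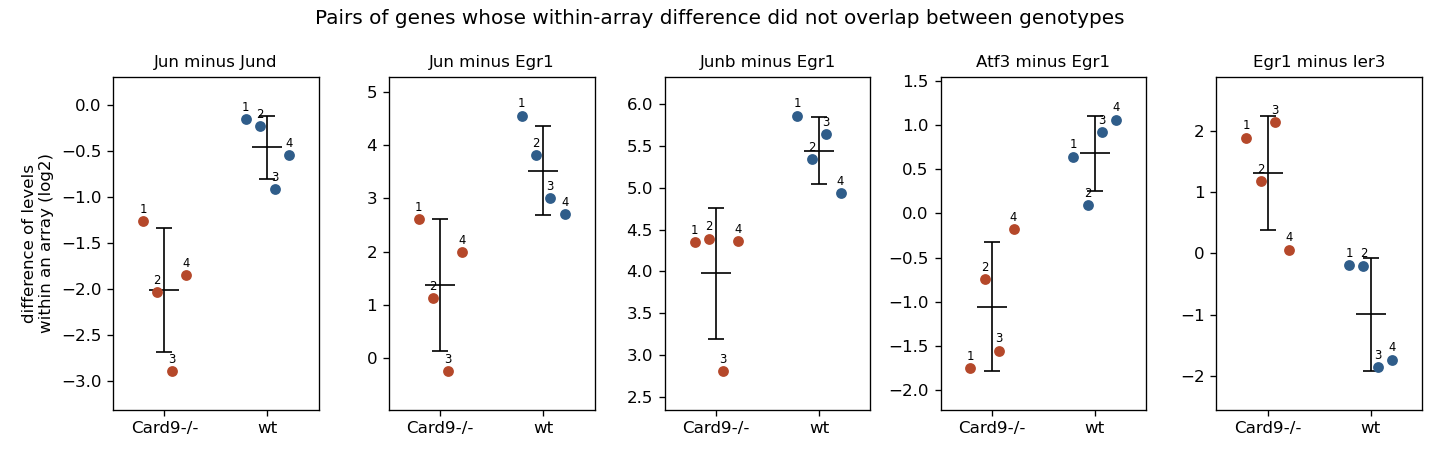
Difference between the levels of 2 genes within the same array (log2) for the 5 of 45 pairs whose Card9-/- and wt arrays did not overlap, each gene at its brightest probe; points are arrays with their replicate number, lines the mean and SD. The panels with Egr1 place it higher against its partner in Card9-/-, by 1.46 to 2.31 on average.

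Around these genes, 4 lists were read from the same fit: other immediate early genes, other leucine zipper factors, the kinases and factors that switch early genes on, and genes that AP-1 often drives. In the 4 lists 0 genes passed the threshold (limma), and 3 of 129 (2.33%) had an unadjusted p under 0.05, against 7.23% of all genes. These were Ier5l, Atf5 and Mafg, all lower in Card9-/-. Of 38 other immediate early genes 23 were lower in Card9-/- (median -0.09), near the 56.3% lower and -0.09 of all genes. Ier5l (1.70 ± 0.55 in Card9-/- and 2.59 ± 0.32 in wt, SD, n = 4 each) had the smallest p of this list (unadjusted 0.0444, adjusted p = 0.673), followed by the growth arrest and stress gene Gadd45b (5.14 ± 0.73 and 6.06 ± 0.23, adjusted p = 0.698). The extremes among genes seen on all arrays were the neuronal early gene Arc (0.68) and the helix-loop-helix inhibitor Id3 (-1.14). In this list too, wt replicate 3 was highest in wt for 25 of 38 genes and Card9-/- replicate 3 in Card9-/- for 23 of 38.

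Of 28 leucine zipper factors 24 were lower in Card9-/- (85.7%), with a median of -0.59. Atf5 (2.25 ± 0.38 in Card9-/- and 3.26 ± 0.55 in wt) and the small Maf protein Mafg (4.06 ± 0.32 and 4.90 ± 0.42, SD, n = 4 each) had unadjusted p of 0.0305 and 0.0414 (adjusted p = 0.624 and 0.67). The oxidative stress factor Nfe2l2 had the lowest difference (-1.02) through wt replicates 3 and 4, at 5.36 and 4.92 against 2.60 and 3.01 in wt replicates 1 and 2 and 2.86 to 3.08 in Card9-/-. Bach2, a lymphocyte repressor, had the highest (0.82). Without both wt replicates 3 and 4, the libraries high in macrophage markers, the median of this list was 0.06.

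Of 38 kinases and upstream factors 24 were lower in Card9-/- (median -0.11). The p38-activated kinase gene Mapkapk2 (5.34 ± 0.22 in Card9-/- and 6.38 ± 1.30 in wt, SD, n = 4 each) had one of the 2 smallest p (adjusted p = 0.776), and Sos1, a guanine nucleotide exchange factor, the highest difference (0.67). Of 25 genes that AP-1 often drives, 13 were higher and 12 lower (median 0.02). The autophagy receptor gene Sqstm1 was at 5.82, 6.07, 5.87 and 5.57 in Card9-/- and 6.44, 6.26, 6.75 and 6.64 in wt. Its groups did not overlap, as for 3.69% of all genes on this side, and its difference of -0.69 (SE 0.31) did not pass (adjusted p = 0.696). The thioredoxin reductase gene Txnrd1 differed by -0.82 (adjusted p = 0.757). Gclm, of glutathione synthesis, had the highest difference (1.32). The median of this list was 1.26 without both wt replicates 3 and 4 and -1.22 without both wt replicates 1 and 2.

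**Figure D5:**
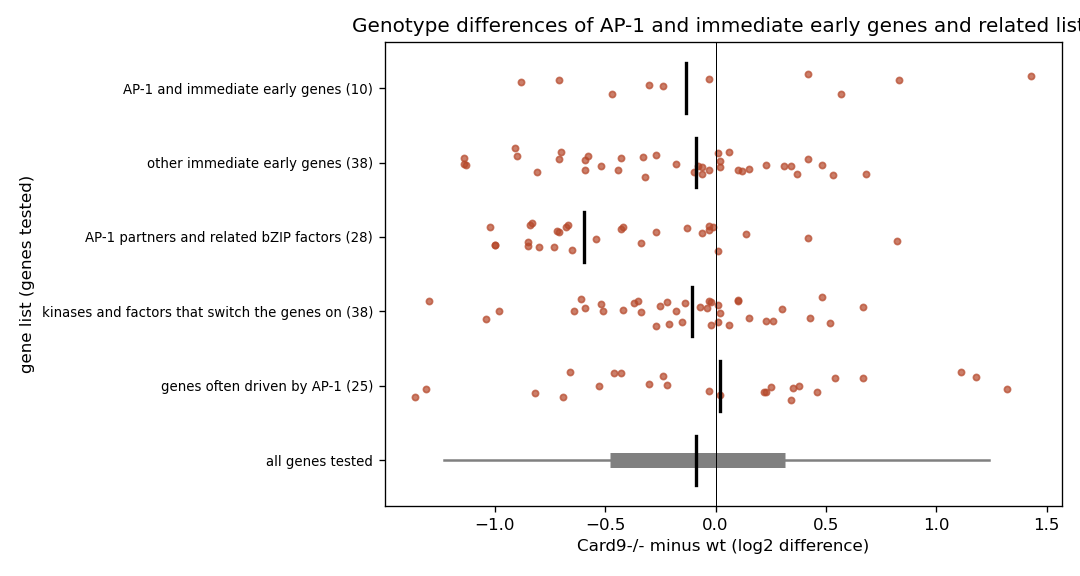
Log2 difference, Card9-/- minus wt, of each gene tested (points) in the AP-1 and immediate early genes and 4 related lists, with the list median (black); for all genes tested, the bar spans the 25th to 75th percentile (-0.48 to 0.32) and the line the 5th to 95th (-1.23 to 1.24). The leucine zipper list has its median lowest, at -0.59.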

How the data were processed

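Each array has a deposited table of spot intensity, produced by Agilent Feature Extraction 10.7.1.1 with background subtraction and detrending, per the file headers; nothing in it ties one array's scale to another's. The authors also deposited a matrix of log2 values. Its rows after row 49669 of 56745 carried the next probe's values, so only the rows up to there were used, as an alternative. Of its 8 columns, 8 matched a scanner file of their own genotype best but 2 that of their own replicate number, so it was compared by genotype only. Replicate numbers here are those of the scanner files. Probe coordinates are those of the files (mm9). From the intensities, log2 signals minus the array's 75th percentile were computed. Outlier spots were left out, and none was at a probe of the 10 genes. A probe entered if 3 or more of the 4 arrays of either group showed it well above background (28169 probes), the brightest standing for a gene (18605 genes). The genotype difference was fitted by limma 3.58.1 (R 4.3.3) with genotype alone in the model, two-sided, Benjamini-Hochberg over all genes tested. Single values also had an exact permutation test over 70 assignments, which cannot go below 0.0286. Fold bounds use the lowest level well above background on each array. The genes and lists were chosen with earlier results of these data known. Named were all 10 genes and, per list, the 2 smallest p and the largest difference each way among genes above background on all arrays. Some genes that this rule names are not reported here.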

Additional observations from a re-analysis of the deposited data

Results flagged for a closer look

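The level of 2 of the 20 groups of 4 arrays held 1 array far from the other 3 (gap to the nearest array over the range of the group, above the critical value for 4 samples). Chance marks about 1 group in 20. Fosl1 in Card9-/- replicate 1 was at -3.54, with a gap of 0.934 of the range, near that array's lowest level well above background (-3.64). Jund in wt replicate 3 was at 7.06, with a gap of 0.947.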

How the results depend on the processing

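Of 210 values of the 10 genes under 21 alternatives, 27 changed sign, 1 passed the threshold that had not (Egr1, below), and the rest kept direction and side. Jun, Jund and Egr1 kept their sign throughout. The cause of the changes was not tested. Leaving out 1 array at a time gave ranges of -0.87 to 0.27 for Fos, -0.13 to 1.51 for Fosb, -0.40 to 0.19 for Fosl1, -0.26 to 0.39 for Junb and -0.71 to 0.13 for Atf3. Without both wt replicates 3 and 4, Fos was 0.36, Junb 0.57, Atf3 0.77 and Ier3 0.68, and the medians of leucine zipper factors and AP-1-driven genes 0.06 and 1.26. Without both wt replicates 1 and 2, Fosb was -0.20 and Fosl2 -0.07, the medians of early and AP-1-driven genes -0.77 and -1.22, and 430 genes passed. With array weights 540 genes passed, 1 of the 10 among them (Egr1, 2.18), and Fos was 0.52, Junb 0.64, Atf3 0.82 and Ier3 0.43, with list medians of 0.18 (leucine zipper factors) and 1.15 (AP-1-driven). Under a slide block, and also in slide 1 alone, 0 genes passed (limma; 1660 and 1637 at an unadjusted p under 0.05), Fosl1 was 0.23, Fosl2 -0.48 and the median of kinases and upstream factors -0.52. Junb was 0.45 with quantile normalization, 0.09 with probes averaged per gene and 0.41 in the authors' matrix, and Fosl1 0.13 with normexp. The median of all genes moved from -0.09 to -0.26 with median scaling, 0.03 with normexp and 0.32 without a filter on dim probes, where values at background enter. With the replicate block 3 genes passed and 0 of the 10. Same-numbered arrays deviated with correlations of -0.28 to 0.253, so the numbers were not taken as pairs.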
